A study of Mus musculus with 127 samples.

Results

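The windows described here are 10 kb stretches of mouse autosome that were listed in both position files of the same nucleus, but at 2 different positions along the axis on which that nucleus had been sliced. They were selected on the measured positions: a window counted as discordant where its position in file 0 and its position in file 1 lay more than 1e-06 axis units apart, and as identical otherwise. Over 10 nuclei there were 105487 discordant windows among 209339 autosomal windows shared by both files, which is 50.4% of them, and among 923296 located autosomal windows (each window counted once per nucleus). The other 103852 shared windows had identical positions. The 20 files together listed 1222168 windows on all chromosomes.

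The nuclei came from F123, a CAST x 129 mouse embryonic stem cell line, which received no treatment. The cells grew with LIF on feeder fibroblasts and were passaged on plates without feeders 2 times before use. The series holds 127 samples, of which 122 are nuclear profiles, single slices of a nucleus whose DNA was amplified genome-wide and sequenced. The remaining 5 are 4 positive controls and 1 negative control, which have no file of positions here and entered no test.

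All groups share the line, the culture conditions and the protocol, and differ in the nucleus and in the batch named in the sample titles. Batch B16F gave Cell17 (23 profiles), Cell18 (16), Cell19 (12) and Cell20 (12). Batch B18F gave Cell25 (15 profiles), Cell26 (7), Cell27 (8), Cell28 (8), Cell38 (10) and Cell39 (11). The replicate is the nucleus, since profiles and windows of a nucleus share their source. No label places the nuclei of a batch in separate cultures, so the p-values measure the spread between these nuclei. F123 is a single line, and marker genes could not be checked in DNA data.

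Genome architecture mapping locates DNA by which thin slices of a nucleus contain it. An autosome is present in 2 copies, a maternal and a paternal homologue, and each copy occupies its own territory in the nucleus. In a hybrid line such as a CAST x 129 cross, sequence variants can separate the homologues where reads cover them. What file 0 and file 1 stand for was not given in the sources used here, nor was the step from reads to a position, so the files are called by their numbers only.

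Positions carried no named unit and are given in axis units. Most were whole multiples of 0.2 axis units above the lowest position of the nucleus, and these points are called the grid, with 0.2 as its step. The number of grid points that spanned a nucleus equalled its number of profiles in 8 of 10 nuclei, and exceeded it by 1 in Cell18 and Cell38. Read counts are not part of the files, and the depth behind a position is unknown. Located autosomal windows per nucleus, the nearest measure of coverage, ran from 46872 in Cell39 to 127788 in Cell25.

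Of 136277 different windows shared in at least 1 nucleus, 80071 were discordant in at least 1, 20010 in 2 or more and 7 in all 10. One of these 7, chr9:3030001-3040000 (mm10), holds the microRNA gene Mir101c. A second recurring window, chr1:171060001-171070000, discordant in 7 of the 8 nuclei that shared it, holds Mir6546 beside Fcgr3 and a group of tRNA genes. MicroRNAs are short RNAs that pair with messenger RNAs mainly through their seed. Their mature sequences are shown, from RefSeq (GRCm38.p6), because they are microRNAs matched to windows discordant in at least 5 nuclei. Each is written 5′ to 3′ with the seed, bases 2 to 8, in capitals. The 3 seeds differ from each other.
mmu-miR-101c, chr9:3038680-3038698, minus strand: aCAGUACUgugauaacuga
mmu-miR-6546-5p, chr1:171064629-171064652, minus strand: aGGCGCCUcugagcuugugcuugu
mmu-miR-6546-3p, chr1:171064591-171064611, minus strand: gAGCGAAGcccaagcgccaga

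Discordant windows made up 50.8% ± 15.5 (SD, n = 10 nuclei) of the shared windows. In B16F the shares were 53.7% in Cell17 (13253 discordant windows), 39.7% in Cell18 (4203), 45.2% in Cell19 (7479) and 57.7% in Cell20 (6919). In B18F they were 49.4% in Cell25 (22281 windows), 39.5% in Cell26 (11033), 41.6% in Cell27 (9934), 61.4% in Cell28 (21299), 87.0% in Cell38 (7205) and 33.2% in Cell39 (1881). Cell38 stood far above the others. It also shared the smallest part of its located windows between the files, 9.80%, against 35.3% in Cell25, the highest. Without regard to sharing, discordant windows were 10.5% ± 4.59 (SD, n = 10) of located autosomal windows. The 2 batches, 4 nuclei against 6, overlapped in the share of discordant windows (49.1% ± 8.13 and 52.0% ± 19.7, SD). The exact two-sided permutation test over 210 arrangements gave p = 0.829, and an adjusted p of 0.843 over 10 batch comparisons.

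**Figure D1:**
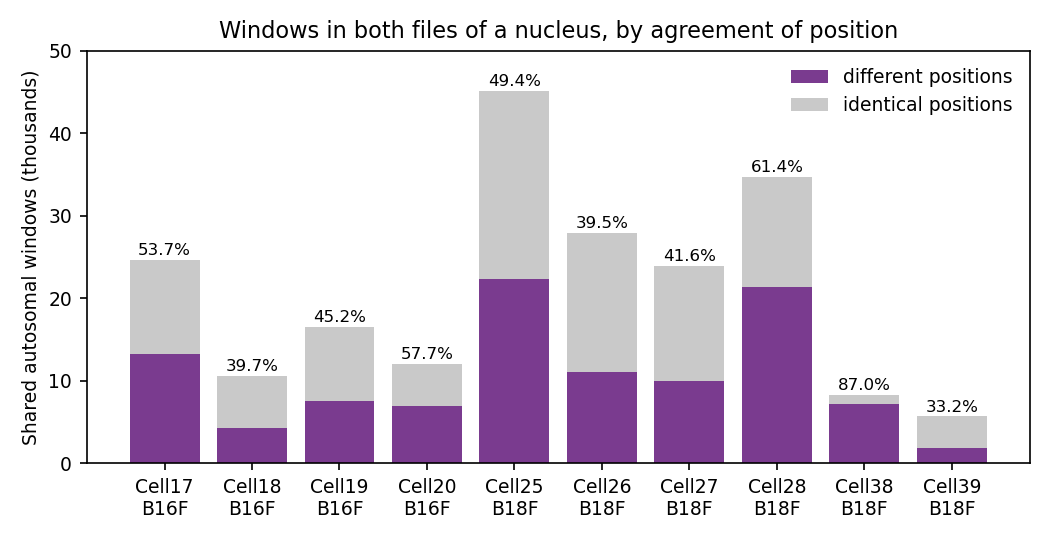
Shared autosomal windows of each nucleus, in units of 1000 windows, stacked by whether the positions in the 2 files differed (purple) or were identical (grey). In Cell38 87.0% of the shared windows were discordant and in Cell39 33.2%.

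The limit of 1e-06 axis units fell in an empty gap. The largest distance among identical windows was 1.22e-12 axis units, and the smallest among discordant windows was 3.60e-06, in Cell28. Distances themselves selected the windows and are given as a description without a test.

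Some discordant windows lay a small part of a grid step apart and others many steps apart. The median distance was 0.263 axis units in Cell17, 0.2 in Cell18, 0.133 in Cell19 and 0.109 in Cell20. In B18F it was 0.2 in Cell25, 0.0667 in Cell26, 0.171 in Cell27, 0.113 in Cell28, 0.333 in Cell38 and 0.240 in Cell39. The mean of these medians was 0.183 ± 0.0812 (SD, n = 10), just under 1 grid step. Distances under 0.02 axis units made up 21.7% ± 11.4 (SD) of discordant windows, from 1.39% in Cell38 to 40.6% in Cell20. Distances of 0.3 and over made up 38.6% ± 10.6 (SD), from 18.2% in Cell26 to 54.0% in Cell38. Windows at least 1 axis unit apart were 10.5% ± 7.07 (SD), with the highest share in Cell17 (21.3%), whose slices spanned 4.4 axis units. Cell26, with the lowest share (0.326%), spanned 1.2 axis units.

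**Figure D2:**
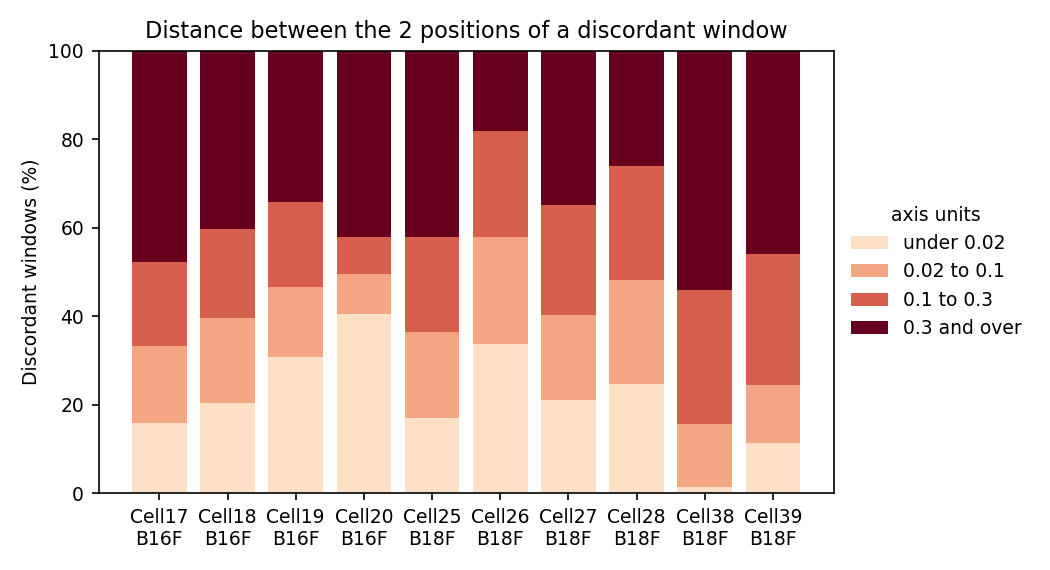
Percent of the discordant windows of each nucleus in 4 classes of distance between the 2 positions, in axis units (the grid step is 0.2). Cell20 has the largest class under 0.02 (40.6%) and Cell38 the smallest (1.39%).

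The 2 positions of a window were nearer to each other than positions of discordant windows on different autosomes, taken across the files with ties left out. The mean distance within a window was 0.536 ± 0.104 (SD, n = 10) times that between autosomes. The ratio was lowest in Cell19 (0.426) and highest in Cell38 (0.766), and it was below 1 in each nucleus. File 1 held the higher position in 50.8% ± 4.09 (SD) of discordant windows, from 41.8% in Cell38 to 56.0% in Cell20, so neither file was uniformly higher.

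Identical and discordant windows differed in how they sat on the grid. Identical windows stood on it in 99.7% ± 0.743 (SD, n = 10) of cases. The same positions set both the class and the place on the grid, so this is a description without a test. Positions off the grid can take many values and seldom coincide exactly, so identical windows lie on it largely by construction. Among discordant windows, 69.8% ± 5.64 (SD) had exactly 1 of the 2 positions on the grid. A further 15.9% ± 5.77 had both on it, and 14.3% ± 4.43 had neither. Windows listed in a single file were on the grid in 71.7% ± 7.47 (SD) of cases. Mean median distances were 0.640 axis units with both positions on the grid, 0.121 with 1 and 0.165 with neither. Of the discordant windows with both positions on the grid, 26.8% ± 11.8 (SD) were exactly 1 step apart, so most of them were 2 or more steps apart.

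Protein-coding genes were less frequent under discordant than under identical windows. Of discordant windows, 46.4% ± 3.71 (SD, n = 10) overlapped a protein-coding gene, against 50.8% ± 1.69 of identical windows. Windows listed in 1 file only overlapped one in 42.5% ± 2.61 of cases. The difference between discordant and identical windows was -4.41 ± 4.09 percentage points (SD), below 0 in 9 of 10 nuclei. The exact two-sided sign-flip test over nuclei gave p = 0.0117, with an adjusted p of 0.0234 over 8 tests. Cell26 had the largest deficit, -10.3 points, and Cell28 had -0.227. Cell38 went the other way by 4.29 points, with 53.1% of its discordant and 48.8% of its identical windows in genes.

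**Figure D3:**
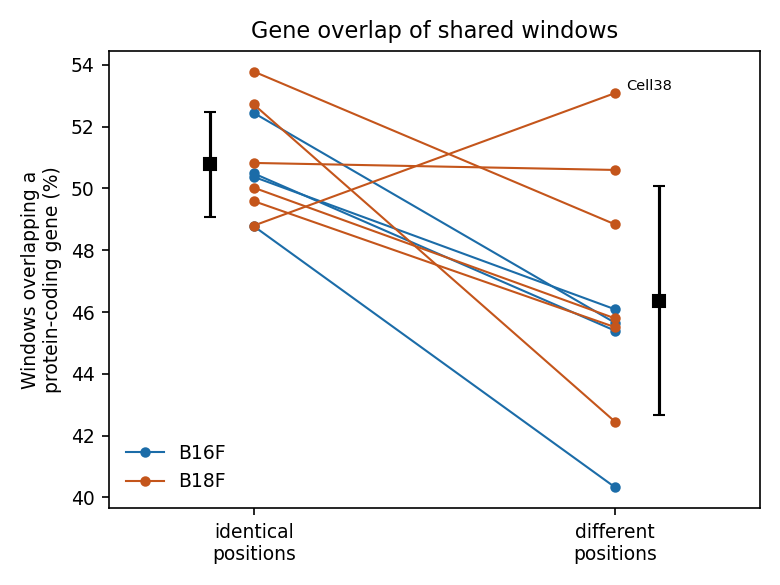
Percent of identical and of discordant windows that overlapped a protein-coding gene, 1 line per nucleus, coloured by batch. Black squares and bars give mean and SD over 10 nuclei (50.8% ± 1.69 and 46.4% ± 3.71), and the line of Cell38 is the one that rises.

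Within the discordant windows, gene overlap was highest in the class of smallest distance. It was 50.3% ± 5.01 (SD, n = 10) under 0.02 axis units, 46.3% ± 4.32 from 0.02 to 0.1, 45.1% ± 5.29 from 0.1 to 0.3 and 44.9% ± 5.60 at 0.3 and over. The class under 0.02 was below the identical windows in 7 of 10 nuclei and the other classes in 9 of 10. The median distance was 0.164 ± 0.0931 axis units in genes and 0.203 ± 0.0816 outside them (SD), lower in genes in 9 of 10 nuclei. Bins of 1 Mb with at least 15 genes had a median of 0.163 ± 0.0869, against 0.204 ± 0.0861 in bins with at most 4 genes. These distances were not tested, since distance selected the windows.

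On the scale of 1 Mb the difference in the number of genes was within the spread between nuclei, and its direction depended on which windows were counted as discordant. Bins with discordant windows held 9.68 ± 0.949 genes and those with identical windows 9.52 ± 0.595 (SD, n = 10). The difference of 0.17 ± 0.92 genes, above 0 in 6 of 10 nuclei, gave p = 0.576 (exact sign-flip test, adjusted p = 0.658). With the discordant class limited to windows with both positions on the grid, it turned to -0.77 genes, above 0 in 3 of 10 nuclei (exact sign-flip p = 0.0430). Discordant windows stood in slightly better covered surroundings: 53.9% ± 12.3 of the windows within 100 kb were listed in either file, against 50.02% ± 13.2 around identical windows. The difference, 3.83 ± 3.65 percentage points (SD), was above 0 in 9 of 10 nuclei (exact sign-flip p = 0.0156, adjusted p = 0.0250). Cell27 was the exception at -4.24. The call was lost where only distances over 0.1 axis units were counted as discordant (3.18 points, p = 0.0742, exact sign-flip). Averaged within 5 classes of this coverage, the gene overlap difference was -4.50 ± 4.30 points (SD), above 0 in 2 of 10 nuclei. Without the classes it was -4.41 points, above 0 in 1 of 10.

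Mouse chromosomes carry the centromere at their first end, and the sequence begins at 3 Mb. Windows that start under 13 Mb made up 8.73% ± 1.64 of discordant and 7.97% ± 0.852 of identical windows (SD, n = 10). The difference of 0.760 ± 1.27 points, above 0 in 7 of 10 nuclei, did not pass the threshold (exact sign-flip p = 0.0957, adjusted p = 0.128). Without Cell38 it was 1.03 points with p = 0.0273 (exact sign-flip), so this result rests on that nucleus.

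Mean values of the chromosomes differed little beside the spread between nuclei. The same nuclei gave the values of every chromosome, so this spread does not measure differences between chromosomes, which were not tested. The mean share of discordant windows was highest on chromosomes 13 (53.7% ± 13.5, SD), 1 (53.1% ± 13.4) and 2 (52.1% ± 14.6). It was lowest on chromosomes 19 (46.5% ± 18.5), 9 (46.6% ± 17.4) and 11 (47.6% ± 19.4). Each chromosome had its highest share in Cell38, from 79.9% on chromosome 8 to 93.0% on chromosome 7. The mean median distance was highest on chromosomes 19 (0.239 ± 0.144 axis units, SD), 12 (0.230 ± 0.171) and 9 (0.222 ± 0.176). It was lowest on chromosomes 18 (0.137 ± 0.0689), 6 (0.147 ± 0.0940) and 11 (0.151 ± 0.0964). Over 19 autosomes, which share the nuclei and are not replicates, Spearman's rho between genes per Mb and the discordant share was -0.316. Between genes per Mb and the median distance it was 0.0263.

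Discordant windows clustered along the chromosomes. Of pairs of shared windows 10 kb apart, 63.6% ± 10.3 (SD, n = 10) were of the same class, against 55.2% ± 10.2 given by the shares of the 2 classes. The excess of 8.46 ± 7.31 percentage points was above 0 in 10 of 10 nuclei (exact sign-flip p = 0.00195, the smallest that 10 nuclei can give, adjusted p = 0.00521). It was 28.0 points in Cell39 and 0.645 in Cell38, where 87.0% of shared windows were discordant. Among windows with both positions on the grid, taken as the discordant class, the excess was 2.41 points. Uninterrupted stretches averaged 12.05 kb for discordant and 12.06 kb for identical windows. The log2 ratio of these lengths was 0.0043 ± 0.16 (SD), above 0 in 6 of 10 nuclei (exact sign-flip p = 0.881). Where distances over 0.3 axis units alone were counted, the log2 ratio was -0.14 (p = 0.0352), and with positions on the grid alone -0.23 (p = 0.00391, both exact sign-flip). It was above 0 in 1 of 10 nuclei each time. The other discordant windows were then left out, and a window left out ends a stretch. This shortens discordant stretches by construction, so these 2 values cannot show that discordant stretches are shorter.

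Single windows were the rule: 72.4% ± 10.4 (SD, n = 10) of discordant windows had no discordant neighbour, and 10.5% ± 8.35 lay in stretches of at least 3. A neighbour can be discordant only if both files list it, and 21.1% ± 8.32 (SD) of located windows were shared. Stretches of identical windows were as short on average (12.06 kb), so this is not particular to discordant windows. Median distance was 0.183 axis units in stretches of at least 3 windows and 0.184 in single windows, with 5 nuclei on either side. The longest stretch of any nucleus was in Cell25, chr1:170790001-171140000, with 35 windows over 350 kb. It overlaps 11 protein-coding genes, the first being Atf6, a membrane-bound transcription factor of the endoplasmic reticulum stress response, then Gm29733 and Dusp12, a phosphatase. File 1 held the higher position in 33 of its 35 windows, and the median distance was 0.615 axis units. In 20 of the 35 windows file 0 gave the same position, 2.31849 axis units. In those 20 windows file 1 gave positions spread from 2.32435 to 3.69535.

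The longest stretch of Cell28 was chr12:112410001-112630000 with 22 windows, among them A530016L24Rik, Tmem179 and Inf2, a formin that shapes actin filaments. There file 0 was higher in 20 of 22 windows and the median distance was 0.210 axis units. Cell26 had 16 windows at chr7:117920001-118080000, which overlap no protein-coding gene, with file 0 higher in 9 of 16. Cell38 had 13 windows at chr11:53000001-53130000 in Fstl4, with file 0 higher in 9 of 13. In the other 6 nuclei the longest stretch held 5 to 7 windows. Cell20 had 3 stretches of that greatest length and Cell39 had 4, of which the first by position was looked up. The stretches overlapped Nt5e (the enzyme CD73, which makes adenosine) in Cell17, Usp46 (a deubiquitinase) in Cell19, Tuba3b (an alpha-tubulin) in Cell27 and Cds2 (a CDP-diacylglycerol synthase) in Cell39. The stretch of Cell18 and the first of Cell20 overlapped no protein-coding gene. One file was thus higher over nearly the whole stretch in Cell25 and Cell28 and over all 5 windows in Cell39 (file 1). File 1 was higher in 3 of 7 windows in Cell17, 2 of 5 in Cell18, 4 of 6 in Cell19, 4 of 5 in Cell20 and 4 of 7 in Cell27. The files were therefore mixed in Cell17, Cell18, Cell19, Cell26, Cell27 and Cell38.

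Neighbouring discordant windows tended to have the same file higher. The sign of the difference between the files took no part in the choice of windows. Of discordant neighbours 10 kb apart, 61.6% ± 5.10 (SD, n = 10) had the same direction, against 50.7% ± 0.841 given by the shares of the 2 directions. The excess was 10.9 ± 5.10 points, above 0 in 10 of 10 nuclei, from 3.26 in Cell18 to 17.5 in Cell20 (exact sign-flip p = 0.00195, adjusted p = 0.00521). Where distances over 0.3 axis units alone were counted as discordant, it was 23.4 points.

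The shared direction reached over 500 kb. The excess was 8.45 ± 4.78 points (SD, n = 10) at 50 kb, 7.10 ± 4.07 at 100 kb and 6.41 ± 2.95 at 500 kb, above 0 in 10 of 10 nuclei at each. The exact sign-flip p was 0.00195 at each, with an adjusted p of 0.00342 over 7 separations. At 1 Mb it was 3.84 ± 4.45 points, above 0 in 7 of 10 nuclei (exact sign-flip p = 0.0273, adjusted p = 0.0383). At 5 Mb it was -0.917 ± 3.66 (p = 0.453, exact sign-flip) and at 10 Mb 2.08 ± 3.50 (p = 0.0957, exact sign-flip), neither past the threshold. Pairs per nucleus ran from 212 to 6270 at 10 kb and from 18 to 2471 at 5 Mb, so the longer separations rest on fewer windows.

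**Figure D4:**
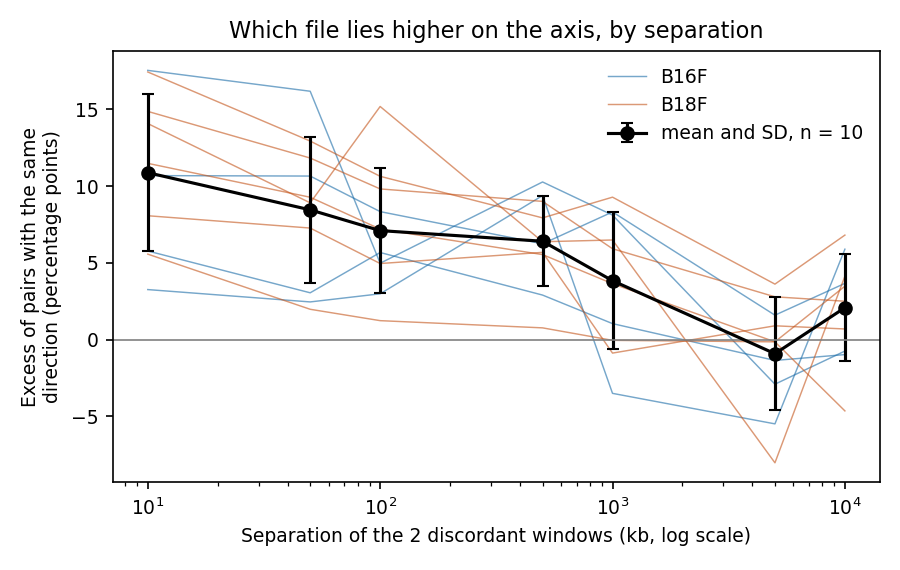
Excess of pairs of discordant windows with the same file higher, in percentage points over the share given by the 2 directions, against their separation in kb on a log axis. Thin lines are nuclei coloured by batch and black points are mean and SD over 10 nuclei, which fall from 10.9 points at 10 kb to 3.84 at 1000 kb.

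On average, the positions of discordant windows were closer to the mean position of nearby windows listed only in their own file. Nearby windows listed only in the other file had a mean position further off. For discordant windows with a single-file window of both kinds within 100 kb (1335 in Cell39 to 15770 in Cell28), the mean distance was 0.485 ± 0.188 axis units to the own file's mean position. To the other file's it was 0.536 ± 0.207 (SD, n = 10). The log2 ratio of other to own was 0.15 ± 0.05, a factor of 1.11, above 0 in 10 of 10 nuclei (exact sign-flip p = 0.00195, adjusted p = 0.00521). It ran from 0.06 in Cell27 to 0.23 in Cell20. With distances over 0.3 axis units alone, it was 0.28.

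**Figure D5:**
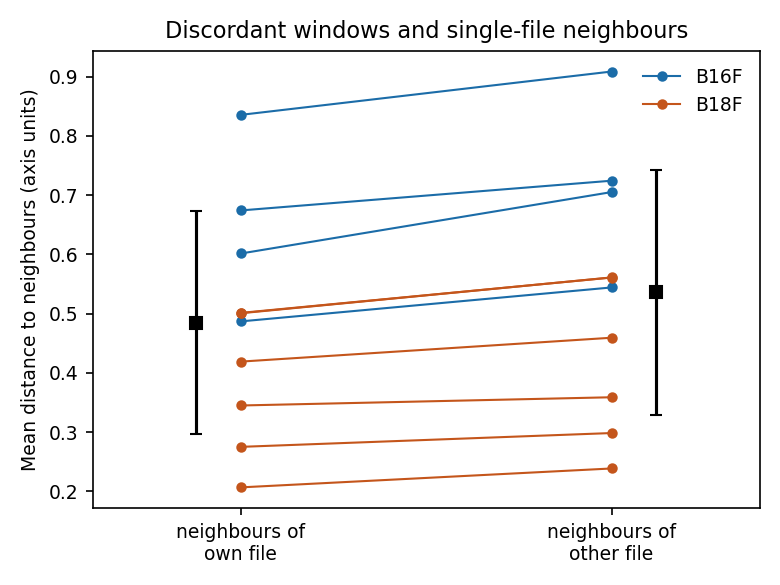
Mean distance, in axis units, from the positions of discordant windows to the mean position of single-file windows within 100 kb. It is given for the own file and for the other file, 1 line per nucleus. Every line rises, from a mean of 0.485 to 0.536, with black squares and bars giving mean and SD over 10 nuclei.

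Of 136277 different windows shared in at least 1 nucleus, 56206 were discordant in none. Of the 80071 windows discordant anywhere, 60061 were discordant in 1 nucleus, 15729 in 2, 3449 in 3 and 643 in 4, and 189 in 5 or more. A window can be discordant only in nuclei where both files list it, so these counts also reflect how often a window was shared. For each of the 45 pairs of nuclei, only windows shared in both nuclei were used. The share of these discordant in both was set against the product of the 2 nuclei's discordant shares among these same windows. That product is not the product of the shares over all shared windows of each nucleus: for Cell17 and Cell18 it was 31.5%. The median ratio was 1.09, with a range from 0.985 to 1.24, and it was above 1 in 40 pairs. The pairs share nuclei, so this is a description.

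The 7 windows discordant in all 10 nuclei overlap no protein-coding gene. They were chr17:39840001-39850000, chr2:98660001-98670000, chr14:19410001-19420000 and 4 neighbouring windows from chr9:3000001 to chr9:3040000, next to the centromere-side start of the chromosome 9 sequence. The chromosome 17 window overlaps AY036118, which is not protein-coding. In Cell18 the chromosome 9 windows lay in its longest stretch, chr9:2990001-3040000. In the 7 windows both positions lay off the grid in every nucleus, except file 1 of the chromosome 17 window in Cell27. Over all discordant windows, 14.3% ± 4.43 (SD, n = 10) had neither position on the grid. In the chromosome 17 window the distance ran from 0.134 axis units in Cell28 to 1.53 in Cell18, with a median of 0.413. The other 6 had smaller medians, from 0.0225 on chromosome 14 to 0.0579 on chromosome 2. Although on different chromosomes, these 6 lay near each other on the axis. In Cell28, which spanned 1.4 axis units, their positions in both files ran from 1.24 to 1.32. In Cell17, which spanned 4.4, they ran from 5.79 to 6.60. They may therefore not behave as ordinary single loci, which was not tested. The Mir101c window had a median of 0.0333, a lowest value of 0.00569 and a highest of 0.380. Of these windows, then, only the one on chromosome 17 lay typically more than 1 grid step apart.

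Of windows in protein-coding genes, the most recurrent was chr10:58220001-58230000, which overlaps LOC100504180 and Duxf3, a double homeobox gene. It was discordant in 9 of 10 nuclei, at distances from 0.00107 in Cell20 to 0.517 in Cell27, and identical in Cell39. Sfi1, which encodes a centrin-binding protein of the centrosome, had 3 such windows on chromosome 11. The window chr11:3180001-3190000 was discordant in 8 of 8 nuclei that shared it, from 0.00427 in Cell26 to 0.798 axis units in Cell17 with a median of 0.202. The windows from 3130001 and 3190001 were discordant in 7 of 7 and 7 of 8. In Chl1, a neural cell adhesion molecule, chr6:103640001-103650000 was discordant in 8 of 8 nuclei, from 0.00500 in Cell27 to 0.917 in Cell17. These windows were named for being discordant in the most nuclei, so their recurrence follows from the choice. Their distances varied widely among the nuclei that shared them.

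The Fcgr3 window, with a receptor for the constant part of IgG and Mir6546, had identical positions in Cell20. In the other 7 nuclei it ran from 0.00914 in Cell26 to 1.25 in Cell17, with a median of 0.0909. In Cell25 it lay within the longest stretch described above. Tmem267 (7 of 7 nuclei, median 0.462), Gm9573 (7 of 8, median 0.0997), Gm38510 (7 of 7, median 0.0495) and Trim34a (6 of 6, median 0.307) completed the 10 windows named by the rule. The 189 windows discordant in 5 or more nuclei had a median distance of 0.162 axis units, against 0.167 for those discordant in 1 nucleus. They overlapped a protein-coding gene in 44.4% of cases, against 47.6%.

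Gene families were followed through the window at each gene's midpoint. Over all protein-coding genes, 10297 of 20627 shared midpoint windows were discordant, which is 49.9%, counted once per gene and nucleus. Neighbouring genes of a cluster can share a window, and windows of 1 nucleus share slices, so the counts of the lists are descriptions with no test. Hox genes, the clustered homeobox genes that pattern the body axis, had the highest share: 39 of 52 (75%), with a median distance of 0.324 axis units against 0.154 over all genes. Counted once per window and nucleus, rather than once per gene, they were 34 of 45. By chromosome, 8 of 9 were discordant on chromosome 2, 7 of 12 on 6, 7 of 11 on 11 and 12 of 13 on 15. Cell25 held 13 of the 17 Hox windows it shared, Cell27 6 of 8 and Cell17 5 of 6, so the count rests mainly on 3 nuclei.

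Hoxc6 was discordant in the 3 nuclei that shared it, with a lowest distance of 0.00789, a median of 0.225 and a highest of 0.683. Hoxb7 was discordant in Cell17 and Cell25 at 0.324 and 1.60 axis units, Hoxb3 in Cell17 and Cell27 at 0.0367 and 0.538, and Hoxb4 in Cell27 and Cell28 at 0.0136 and 0.555, each pair given lowest first. Each of these 3 was discordant in both nuclei that shared it.

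Imprinted genes, which are expressed from 1 parental copy, were discordant in 25 of 44 midpoint windows (56.8%), against 49.9% over all protein-coding genes. Counted once per window and nucleus, they were 23 of 40. A difference from all genes was not tested. The genes named next were chosen for being discordant in the most nuclei. Gnas, the stimulatory G protein alpha subunit, was discordant in 3 of 3 nuclei, from 0.00109 to 0.353 axis units. Mirg, a non-coding RNA gene of an imprinted cluster on chromosome 12, was discordant in 3 of 4, from 0.0756 to 1.60. Copg2, a coatomer subunit, was discordant in 2 of 2, at 0.664 and 2.02, and the tetraspanin gene Cd81 in 2 of 4, at 0.149 and 0.233.

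Pluripotency factors stood at 14 of 33 (42.4%), against 49.9% over all protein-coding genes, a difference that was not tested. Among them Dppa4 was discordant in 2 of 4 nuclei, both within 0.00477 axis units, and Klf5 in 2 of 5, at 0.0571 and 0.385. Tfcp2l1 was discordant in 2 of 2, once by 0.000181 and once by 0.800. Dnmt3l, a cofactor of DNA methylation, was discordant in 1 of 2, by 0.00492.

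Among large families, 351 of 783 olfactory receptor windows (44.8%) and 92 of 177 vomeronasal receptor windows (52.0%) were discordant, both near the 49.9% of all genes. Vmn1r2, a pheromone receptor, was discordant in 6 of the 7 nuclei that shared it, from 0.0105 to 0.413 axis units. Clustered protocadherins stood at 40 of 66 (60.6%), but at 17 of 35 counted once per window and nucleus, since many of their genes share windows. Replication-dependent histones stood at 17 of 26, or 8 of 13 counted once per window and nucleus. Ribosomal proteins stood at 57 of 104 (54.8%), with Rpl22, Rpl29 and Rps14 discordant in 3 of 3 nuclei and Rpl18 in 3 of 4. Transfer RNA synthetases stood at 10 of 23 (43.5%), with Iars discordant in 2 of 4 and Wars in 2 of 2.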

How the data were processed

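DNA of F123 nuclear profiles was amplified by whole genome amplification and read on a HiSeq X (labels' protocols). Picard, Bowtie2 2.3.5, Trim Galore 0.6.4 and the mm10 build appear in the submitters' processing notes, while the step from reads to positions was not given in the sources used here. The authors' deposited files list 10 kb windows with a start and an axis position, which is in another unit than counts and unnamed per the file headers. Depth is therefore unknown.

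Files were joined per nucleus by chromosome and start. Genes are 20661 autosomal protein-coding genes of RefSeq GRCm38.p6, which shares mm10's primary coordinates; histones were matched through older names among the synonyms. A position is on the grid within 1e-05 axis units. Each nucleus gave 1 value to an exact two-sided sign-flip test (1024 patterns), adjusted by Benjamini-Hochberg over 8 tests. Python 3.11.15, numpy 2.4.6, pandas 2.3.3 and scipy 1.17.1 were used, and the computation was tested on simulated data.

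The members and the 9 gene lists were chosen with earlier results of these data known. Named were the first 10 windows overlapping a protein-coding gene, by number of nuclei discordant and then mean distance; the longest stretch of each nucleus with up to 3 genes; up to 4 genes per list discordant in the most nuclei, ties alphabetically; and the 3 highest and 3 lowest chromosomes. Not all named genes are printed. The windows discordant in all 10 nuclei were named after their values were seen. Alternatives were larger distances, grid positions alone, other annotations, bins, spans and gaps, each batch alone and each nucleus left out. Leaving out windows discordant in 3 or more nuclei, and classes of coverage, were chosen after seeing the data.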

Additional observations from a re-analysis of the deposited data

Results flagged for a closer look

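In 30 groups of values, 4 held a nucleus far from the others by Dixon's criterion, which chance alone gives in about 1 of 20 groups. Cell38 had 87.0% of its shared windows discordant, where the next nucleus, Cell28, had 61.4%. Cell39 had an excess of 28.0 percentage points of neighbouring windows of the same class, and stood apart both among the 10 nuclei and among the 6 of B18F. Cell27 had a coverage difference of -4.24 points between the surroundings of discordant and identical windows, the only value below 0.

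Outside the autosomes, chromosome X held 766 discordant windows among 950 shared ones (80.6%), in 10 nuclei, and chromosome Y held 288 among 371 (77.6%), in 9 nuclei. The nuclei contributed unevenly to these pooled shares: on X, Cell20 had 274 discordant of 284 shared windows and Cell38 had 2 of 2. Windows on X and Y entered no comparison, and the difference from the autosomes was not tested.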

How the results depend on the processing

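Of 142 alternative values, 116 kept their direction and their side of the threshold. In the same direction, 9 lost a call and 2 gained one. A further 15 changed sign, of which 3 gained a call and 1 lost one. All p-values are from the exact sign-flip test. Of the sign changes, 14 concern gene density and stretch length, which had passed no threshold. Gene density became -0.0319 genes per bin with distances over 0.1 axis units, -0.13 over 0.3, -0.77 with both positions on the grid (p = 0.0430), -0.0539 in B16F alone and -0.0041 without windows discordant in 3 or more nuclei. The log2 ratio of stretch lengths became -0.0930 over 0.1 axis units, -0.14 over 0.3 (p = 0.0352) and -0.23 on the grid (p = 0.00391). In these settings the discordant windows left out break up discordant stretches, so a lower ratio follows by construction. The ratio was -0.0262 without the recurring windows and -0.0073 in B18F alone. Without Cell17, Cell20, Cell28 or Cell38 it was also below 0. Local coverage became 3.18 points over 0.1 axis units (p = 0.0742), 3.51 over 0.3 (p = 0.0762) and -1.50 on the grid (p = 0.508). The centromere-proximal share passed the threshold for starts under 8 Mb (0.778 points, p = 0.0312) and without Cell38.

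In B16F alone, where 4 nuclei cannot give a p under 0.125, gene overlap was -6.16 points, class adjacency 5.92, direction adjacency 9.31, the own-file log2 ratio 0.15 and local coverage 3.39. In B18F alone, gene overlap was -3.25 (p = 0.156) and local coverage 4.13 (p = 0.125). The causes of these changes were not tested, beyond the smaller number of nuclei in single batches. With each nucleus left out in turn, gene overlap ran from -5.38 to -3.76, gene density from 0.05 to 0.38, class adjacency from 6.29 to 9.33, stretch length from -0.0222 to 0.0321, direction adjacency from 10.1 to 11.7, the own-file ratio from 0.14 to 0.16, local coverage from 3.29 to 4.73 and the centromere-proximal share from 0.59 to 1.03.

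No paired analysis was possible because the labels give the nuclei of the 2 batches no shared replicate number; the other tests already set discordant against identical windows within each nucleus. With no read counts, the counting error of a position is unknown, and windows near each other share slices.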
